A study of Mus musculus with 31 samples.

Results

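The regions described here are 432 stretches of the mouse X chromosome that the authors classed as bound by the chromatin remodeler BRG1 on 1 allele and that lay between annotated genes. They were chosen by the deposited BRG1 class and by gene positions, from the authors' list of 887 X-linked BRG1 sites classed Monoallelic, as those that shared no base with the span of any X-linked row that has a gene symbol in the deposited exon table, which holds 1263 such rows for 1058 symbols. The other 455 Monoallelic sites touched a gene. All 3 deposited classes together hold 1136 BRG1 sites, of which 189 are classed XiRestored and 60 Biallelic. Class, position relative to genes and the chromosome were thus fixed by the choice and are described without a test. The sites are mm10 coordinates without signal, so that the 1 allele is the one on the active X rests on the class name and was not tested here.

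The series compared female dermal fibroblasts of a CAST/Ei x 129/Sv/Jae hybrid in 3 groups: WT, the line XaWT XiΔXist (line 1 below) and the line XaWT XiΔXist #2 (line 2 below). In both lines the inactive X lost Xist by deletion after X inactivation had taken place, while the active X kept the gene. The labels tie the BRG1 lists to native ChIP-seq of WT and line 1 with their inputs, in which chromatin was not fixed and was cut with the nuclease benzonase. The lists of accessible sites are tied to ATAC-seq of WT and line 1 dermal fibroblasts and of WT embryonic fibroblasts (MEF) of the same cross, and RNA-seq was run on 2 libraries each of WT, line 1 and line 2. The sources used here do not say whether a line is a single clone.

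BRG1, the product of Smarca4, is the ATPase of mammalian SWI/SNF complexes, which slide or evict nucleosomes and so open DNA at enhancers and promoters. In female cells 1 X is silenced by Xist RNA, which coats that chromosome in cis, and the other X stays active. Sites of BRG1 away from genes are of interest because distal enhancers lie there, and ATAC-seq marks such open DNA by where the Tn5 transposase can insert.

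Most of these sites lay away from promoters, and only 11 promoter windows of the RefSeq table touched one (windows run from 250 bases before to 50 bases after a gene start). The 250 bases before the start are printed for 6 of them, because they show where the BRG1 interval stops short of the gene. Tsr2, Pwwp3b and Rab9 stand for the sites nearest to a start, Prps1 and Eda2r for sites that also touched an accessible site, and Gm1720 lies beside the run with most sites. Each is given 5′ to 3′ along its gene, from RefSeq on GRCm38.p6 (the same primary coordinates as mm10), with the bases inside the BRG1 site in capitals.

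Tsr2 (chrX:151096544-151096793, minus strand): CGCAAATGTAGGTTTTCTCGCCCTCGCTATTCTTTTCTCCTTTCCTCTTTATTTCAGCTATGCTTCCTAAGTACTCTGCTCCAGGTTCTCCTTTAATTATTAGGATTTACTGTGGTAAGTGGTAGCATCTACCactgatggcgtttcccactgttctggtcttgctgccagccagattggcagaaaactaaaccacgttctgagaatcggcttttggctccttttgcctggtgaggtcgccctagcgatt

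Pwwp3b, listed in the gene table as Mum1l1 (chrX:139209794-139210043, plus strand): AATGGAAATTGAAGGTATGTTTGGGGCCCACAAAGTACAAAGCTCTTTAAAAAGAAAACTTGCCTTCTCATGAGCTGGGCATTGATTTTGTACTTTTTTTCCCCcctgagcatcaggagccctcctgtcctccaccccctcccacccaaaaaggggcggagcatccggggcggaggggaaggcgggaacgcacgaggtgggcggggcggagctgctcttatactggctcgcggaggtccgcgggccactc

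Rab9 (chrX:166479868-166480117, minus strand): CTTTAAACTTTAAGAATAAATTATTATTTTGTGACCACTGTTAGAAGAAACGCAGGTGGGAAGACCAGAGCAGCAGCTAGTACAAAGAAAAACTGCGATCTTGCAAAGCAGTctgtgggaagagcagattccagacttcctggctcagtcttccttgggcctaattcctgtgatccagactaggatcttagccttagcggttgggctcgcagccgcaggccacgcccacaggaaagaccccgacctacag

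Prps1 (chrX:140456353-140456602, plus strand): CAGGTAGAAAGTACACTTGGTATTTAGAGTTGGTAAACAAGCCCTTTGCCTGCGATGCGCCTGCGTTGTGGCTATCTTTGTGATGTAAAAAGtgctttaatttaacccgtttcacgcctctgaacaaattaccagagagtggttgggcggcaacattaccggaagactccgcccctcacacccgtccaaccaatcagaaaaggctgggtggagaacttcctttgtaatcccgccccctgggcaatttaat

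Eda2r (chrX:97377210-97377459, minus strand): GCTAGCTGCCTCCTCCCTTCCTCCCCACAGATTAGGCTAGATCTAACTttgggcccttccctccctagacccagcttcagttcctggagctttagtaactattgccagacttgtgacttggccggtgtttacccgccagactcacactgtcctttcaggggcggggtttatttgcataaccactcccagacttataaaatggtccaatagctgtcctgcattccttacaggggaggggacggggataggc

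Gm1720 (chrX:166661775-166662024, plus strand): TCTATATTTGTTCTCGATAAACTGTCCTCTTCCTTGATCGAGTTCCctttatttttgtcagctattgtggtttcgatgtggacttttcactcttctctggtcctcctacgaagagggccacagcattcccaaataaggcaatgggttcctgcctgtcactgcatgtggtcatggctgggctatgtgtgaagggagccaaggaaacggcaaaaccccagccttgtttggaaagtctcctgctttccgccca

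In all 6 the BRG1 interval covered the end of the window farther from the gene, from 46 of the 250 bases at Gm1720 to 133 at Tsr2, which follows from the choice of sites outside gene spans. Across the full windows of 300 bases of all 11 promoters, searched on both strands, the AP-1 motif TGANTCA was in 2, the TEAD motif GGAATG in 3, the ETS motif CCGGAAG in 2, the RUNX motif TGTGGTT in 2 and the E-box CACGTG in 3. The CTCF motif, searched by its consensus, and the NF-I motif were in 0 of the 11. Among all 32851 RefSeq promoters of that length, 7.81% held the AP-1 motif, 14.7% the TEAD motif, 8.86% the ETS motif, 5.27% the RUNX motif and 7.15% the E-box, while 0.457% held the CTCF motif and 0.0365% the NF-I motif. None of the matches at the 11 promoters lay wholly within the bases of the BRG1 site. Median GC content was 50.0% for the 11 promoters and 52.7% for all.

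The sites were short and mostly far from any gene start. Their median width was 532.5 bases (quartiles 350 and 807, range 115 to 3282), and together they covered 284 kb. Monoallelic sites inside genes had a median width of 613 bases, and the 96 XiRestored sites between genes one of 721 bases. From the centre of a site to the nearest gene start the median distance was 37.6 kb (quartiles 13.3 and 80.6 kb), against 22.4 kb for the genic sites and 36.8 kb for the XiRestored sites between genes. Within 1 kb of a start lay 33 sites (7.64%), within 10 kb 93 (21.5%) and within 50 kb 254 (58.8%, exact 95% interval 54.0 to 63.5%). The other 178 lay farther out. Of the genic Monoallelic sites, 77.1% (73.0 to 80.9%) lay within 50 kb of a start. All such intervals are exact (Clopper-Pearson) and cover counting error only, and sites of 1 chromosome are not replicates.

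**Figure D1:**
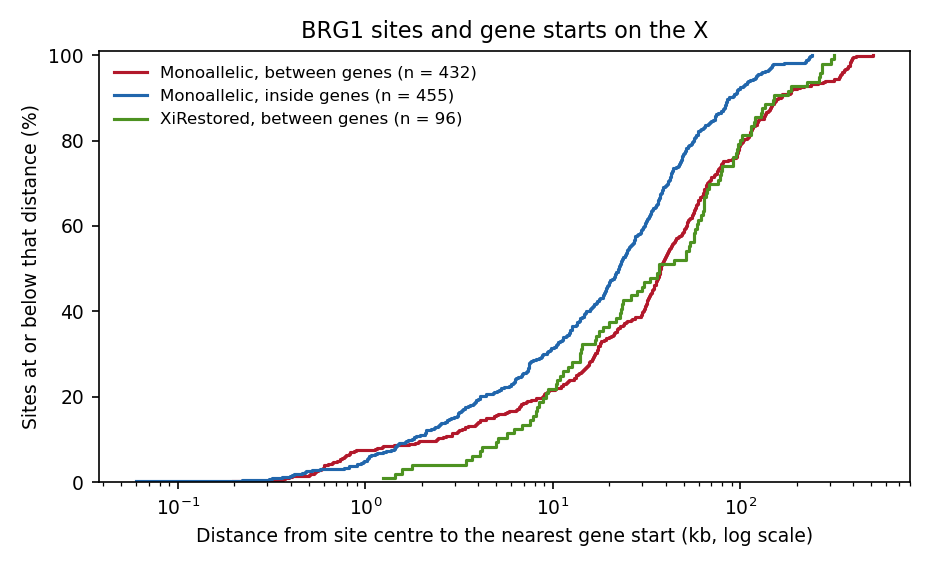
Cumulative share of BRG1 sites (%, y axis) by distance from the site centre to the nearest gene start (kb, log scale, x axis) for Monoallelic sites between genes, Monoallelic sites inside genes and XiRestored sites between genes. The line of the 432 sites between genes runs to the right of that of the genic sites from a few kb on, with medians of 37.6 and 22.4 kb.

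Not all of the nearest genes were expressed. For 232 of the 432 sites (53.7%) the nearest gene passed the filter on low counts in the RNA libraries, against 79.8% of the genic sites and 47.9% of the XiRestored sites between genes. Counting only starts of such expressed genes, the median distance was 68.0 kb, against 27.5 kb for the genic sites and 86.7 kb for the XiRestored sites between genes.

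At the boundary of the rule, the sites nearest to a gene without touching it lay 117 bases from Tsr2, 136 bases from Maged2 and 138 bases from Rab9. On the other side of it, the sites with the fewest bases in a gene span had 109 bases (nearest start Dlg3), 112 (Sh3kbp1) and 121 (Mamld1). These were narrow sites that lay wholly within gene spans, and so they are not sites that cross the edge of a gene. Gene spans depend on the annotation: in the larger RefSeq set 72 of the 432 sites lay within a gene, 42 of them in a long noncoding RNA, 36 in a protein-coding gene and 2 in a pseudogene, with some in more than 1. Sytl5, which codes for a synaptotagmin-like protein of vesicle traffic, held 9 of them and the lncRNA Gm35988 another 9. The overlapping Plac1, a placenta-enriched gene, held 8. The lncRNA Gm35727 (chrX:51681757-51864066), which begins just beyond the start of Hs6st2, held 6, and so did Gm38657. Amot, which is longer in that set (chrX:145446424-145505966), held 3. For 360 sites neither annotation had a gene.

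Sites came in runs. With gaps under 10 kb joined, the 432 sites formed 252 runs, of which 147 were single sites, and 285 sites lay in runs of at least 2. The median gap to the next site was 22.0 kb, but 122 of the 431 gaps were under 1 kb, the smallest 70 bases. The run with most sites had 13 in 46.2 kb (chrX:166763259-166809432) between Gm1720 and Gm8817, both with at most 6.5 deposited counts in any library. Next came 9 sites in 30.7 kb (chrX:167152898-167183594) between Gm8817 and Tmsb4x, the gene of the actin-binding thymosin beta 4, and 7 sites in 10.3 kb (chrX:157021025-157031304) between 4930503H13Rik and Phex, the gene of a peptidase that governs phosphate balance. A run of 6 sites between Platr21 and D330045A20Rik was packed more closely, in 3.95 kb (chrX:139392351-139396304).

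Along the chromosome the sites were unevenly spread. In 10 Mb bins the last bin, 160 to 170 Mb, held 81 of the 432 sites (18.8%) with 5.20% of the gene symbols, and the bin from 110 to 120 Mb held 0 of the 432. Over the 17 bins the number of sites had a Pearson correlation of 0.833 (Spearman 0.877) with that of the genic Monoallelic sites, of 0.418 (0.542) with the number of gene symbols and of 0.174 (0.216) with the XiRestored sites between genes. These are descriptions over bins that share the same libraries and class calls. XiRestored sites between genes gathered elsewhere: 42 of the 96 lay between 10 and 20 Mb, where 37 of the 432 lay. From the centre of a site to the middle of a gene, no site lay within 500 kb of Xist, and the nearest was 516 kb away. Of the X-linked repeat loci Firre and Dxz4 (4933407K13Rik), the first had 1 site within 500 kb, at 109 kb, and the second had none, the nearest being 608 kb away. None of the 86 RefSeq microRNA hairpins on the X lay in a site. The most isolated sites were chrX:123612243-123612375, 467 kb from any gene span and between Cldn34c1 and Vmn2r121, and chrX:156126636-156127875, 412 kb from any span and between Ptchd1 and 4930503H13Rik.

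Accessibility was a readout that the choice of sites had not used. Most of the 432 sites lay neither on a Monoallelic accessible site nor within 1 kb of one. Those that did lay beside it more often than on it. The lists hold accessible sites that the authors classed by allele, so absence from them does not show closed DNA. Of the 432 sites, 57 (13.2%, 10.1 to 16.8%) shared at least 1 base with 1 of the 356 accessible sites classed Monoallelic, and 145 (33.6%, 29.1 to 38.2%) lay less than 1 kb from one. For the genic Monoallelic sites the numbers were 32 of 455 (7.03%, 4.86 to 9.78%) and 103 (22.6%, 18.9 to 26.8%). The intervals take each site as independent, but the 57 sites touched only 47 accessible sites. The difference from the genic sites was not tested. No site of the 432 touched an accessible site classed Biallelic or XiRestored, which by a limit of 3 counts allows a share of up to 0.694%. Of the XiRestored BRG1 sites between genes, 16 of 96 touched the XiRestored accessible list and 0 touched the Monoallelic one. Both kinds of list were classed by allele by the authors, so that classes match is not independent of how they were called.

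The overlaps were shallow. Where a site touched an accessible site they shared 1 to 258 bases, median 52, and only 3 of the 356 accessible sites had their centre inside one of the 432 BRG1 sites. A further 51 sites stopped 1 to 100 bases short of an accessible site, and 37 ended farther off but less than 1 kb away. Asking for an overlap of at least 50% of the shorter interval left 0.926% of the sites, against 1.10% of the genic sites.

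**Figure D2:**
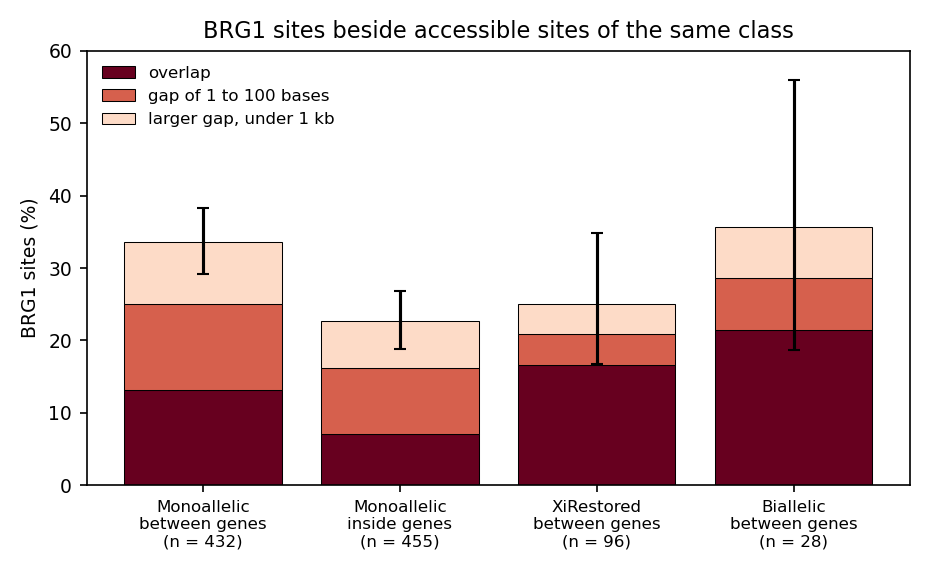
Share of BRG1 sites (%, y axis) that overlap an accessible site of the same class or lie up to 100 bases or up to 1 kb from one, for 4 sets of BRG1 sites (x axis); error bars are exact 95% intervals of the total. The total is 33.6% for the 432 Monoallelic sites between genes and 22.6% for those inside genes, and the smaller sets have wide intervals.

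Measured from the centre of an accessible site, the share of the 356 that was covered by one of the 432 BRG1 sites was 0.843% at the centre, 12.4% at 200 bases on either side, and 15.2% at 300 bases to the right. At 1 kb it had fallen to 6.18% on the left and 8.71% on the right. Within 1 kb, 103 accessible sites had a BRG1 site of the 432 beside them, and 42 had one on each side. Genic sites showed a trough at the same place, and 27 accessible sites had genic sites on both sides.

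**Figure D3:**
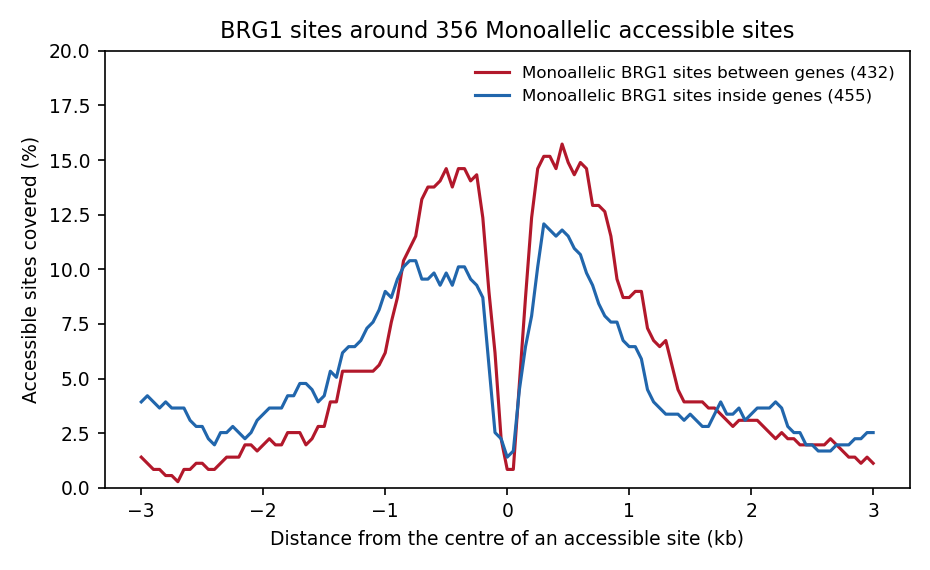
Share of 356 Monoallelic accessible sites (%, y axis) whose surroundings are covered by a BRG1 site, by distance from the centre of the accessible site (kb, x axis), for BRG1 sites between and inside genes. Both lines drop at 0, to 0.843% for the sites between genes, and stand highest on either side of it.

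The loci that follow were picked from the 42 accessible sites with a BRG1 site on each side, so they illustrate the arrangement and add no support to it. At Amot, which encodes a junction protein that binds YAP, the BRG1 sites chrX:145490609-145490936 and chrX:145491090-145491897 left a gap of 153 bases, and the accessible site chrX:145490933-145491071 filled nearly all of it. In the larger RefSeq set, Amot extends over both of these BRG1 sites. At Bex3, a small adaptor gene, a gap of 257 bases between chrX:136265948-136267797 and chrX:136268055-136269052 was nearly filled by the accessible site chrX:136267772-136268053, which also reached into the left BRG1 site. At Hs6st2, the gene of a heparan sulfate sulfotransferase, the gap between chrX:51702510-51702942 and chrX:51703175-51704029 was 232 bases and the accessible site was chrX:51703044-51703218. In the run beside Tmsb4x, the sites chrX:167157826-167158455 and chrX:167158597-167159658 met the accessible site chrX:167158389-167158630 at its edges, and it filled the gap of 141 bases between them.

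Gaps between neighbouring sites carried the pattern in number. The 122 gaps under 1 kb had a median of 265 bases (quartiles 196 and 406), and 39 of them (32.0%, 23.8 to 41.0%) held the centre of an accessible site. Of 143 such gaps between genic Monoallelic sites, with a median of 264 bases, 24 (16.8%, 11.1 to 23.9%) did. Joining sites across gaps under 1 kb turned the 432 into 310. The BRG1 chromatin was cut with a nuclease and the intervals were set by a peak caller, and what either step did to the edges of the sites was not tested.

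By width, the share that touched an accessible site was 9.26% in the narrowest and 8.33% in the second quartile, and 17.6% in each of the upper quartiles, with overlapping intervals. Compared within bands of width, under 500 bases 9.05% of sites between genes and 2.27% of genic sites touched, from 500 to 1000 bases 15.1% and 7.50%, and from 1000 bases on 20.3% and 13.4%, with intervals that overlap in each band. By distance to a gene start, the share was 12.1% within 1 kb, 11.7% from 1 to 10 kb, 9.32% from 10 to 50 kb and 17.4% (12.2 to 23.8%) beyond 50 kb, and these intervals overlap too. Seen from the other side, 44 of the 122 Monoallelic accessible sites that themselves lay between genes touched one of the 432.

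To ask what RNA of nearby genes did without Xist, each site was linked to the gene with the nearest start, if that start lay within 50 kb. This linked 254 sites to 130 genes, 72 of them with a single site. The genes with most sites were Vma21, an assembly factor of the proton pump V-ATPase, and Gm8817 (8 each), Plac1 (7), Tmsb4x and Platr21 (6 each) and, with 5 each, 3632454L22Rik, Hs6st2, Rlim and Hypm. Of the 130 genes 81 passed the filter on low counts and could be tested, with 152 sites, and 49 could not, with 102 sites. Gm8817, Plac1, Platr21, 3632454L22Rik and Hypm were among the untested, with 0 to 6.5, 2.5 to 39.5, 0 to 1.0, 3.0 to 7.5 and 1.5 to 2.5 deposited counts per library.

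The 6 RNA libraries had totals of 10.5 to 20.1 M by their headers, of which 3.81 to 7.07 M counts in exons were used, and in each group replicate 1 was the shallower. Xist had 633 and 429 CPM (counts scaled to the library's total) in the WT libraries, against 1.08 and 0.273 for line 1 and 0.969 and 0.282 for line 2, as labelled. Smarca4 did not pass the test in either line (log2 fold change -0.22 ± 0.18 SE, adjusted p = 0.526 in line 1, and -0.10 ± 0.18, adjusted p = 0.914 in line 2). Of all genes tested 14.3% were called in line 1 and 3.58% in line 2 (adjusted p under 0.05, edgeR's quasi-likelihood test), beside which the counts of the lists below are to be read. Of 24 SWI/SNF genes tested, 0 rose and 2 fell in line 1 (Smarcd3 and Dpf1, both accessory subunits) and 0 passed in line 2. In the AP-1 list Jun alone of 9 rose in line 1 and 0 of 9 passed in line 2. In the list of TEAD, RUNX, CTCF and cohesin genes, Runx1 and Runx3 of 14 rose and Tead2 fell in line 1, and Runx1 rose in line 2. All 10 fibroblast markers were tested, with a summed level of 4086 to 6575 CPM over the 6 libraries, of which Dcn rose in line 1. Of the 6 keratinocyte markers 2 were tested (8.73 to 15.2 CPM summed), with Trp63 lower in line 1, of the 6 leukocyte markers 2 (6.82 to 19.9 CPM), with Lyz2 lower in line 1, and of the 3 muscle markers 1 (0.273 to 8.00 CPM).

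Other cell type markers moved with the lines. The 2 tested of 6 melanocyte and Schwann markers summed to 13.6 and 11.8 CPM for WT, 57.3 and 57.3 for line 1 and 11.4 and 8.60 for line 2. Mitf rose in line 1, while Dct had 0 deposited counts in all 6 libraries and Tyr and Sox10 had at most 0.5 in line 1. The 3 tested of 5 endothelial markers summed to 12.1 and 10.2 CPM for WT, 2.43 and 1.23 for line 1 and 5.81 and 4.51 for line 2, with Erg and Kdr lower in both lines. The untested ones were too low in WT to show a fall. Pecam1 had 0.5 to 1.5 deposited counts in every library. Cdh5 had 0 in both WT libraries, 0 and 15 in those of line 1 and 0.5 in each of line 2. What part these cells or genes have in the values below was not tested, and in bulk RNA fewer cells of a type and less RNA per cell cannot be told apart.

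Few linked genes were called in either line by the main fit, and how many depended on the libraries and on blocking by replicate number. In line 1, 7 of the 81 (8.64%) passed at an adjusted p under 0.05 in edgeR's quasi-likelihood test, 3 higher and 4 lower, against 14.3% of all 12910 genes tested (6.75% higher and 7.55% lower), 15.2% of the 415 X-linked ones and 16.8% of X-linked genes with no linked site. In line 2, 2 of 81 (2.47%) passed, 1 each way, against 3.58% (1.73% higher and 1.85% lower), 4.82% and 5.39%. The median log2 fold change of the 81 was -0.012 in line 1 and -0.00062 in line 2, beside 0.0051 for all genes in each line. Both comparisons share the WT libraries. Without WT replicate 1 or WT replicate 2, 2 linked genes were called in line 1 (2.30% and 2.44% of those tested, against 5.76% and 5.52% of all genes). Without replicate 1 of line 1 they were 11 (12.6%, against 17.6%), and without its replicate 2 they were 13 (16.0%, against 14.7%), so that the linked genes were called less often than all genes in some of these fits and not in others. In line 2, fewer linked genes were called without any 1 of the 4 libraries compared. The share called of all genes fell in each of these fits too, so that lost calls were not limited to linked genes. With the replicate number as a block the counts were 24 of 81 in line 1 (29.6%, against 32.4% of all genes) and 4 of 81 in line 2 (4.94%, against 12.1%). The difference between linked genes and all genes was not tested. Between the lines themselves, 10 of the 81 (12.3%) differed, against 12.6% of all genes tested.

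Calls were also counted by how near the site was. Of the 30 tested genes with a site within 1 kb of their start, 0 were called in either line by edgeR or by DESeq2, with 2 at an unadjusted p under 0.05 in line 1 and 1 in line 2, a cut that 28.0% and 14.5% of all genes tested met. With a site within 10 kb, 3 of 53 (5.66%) were called in line 1 (Apln, Hs6st2 and Amot) and 1 (1.89%) in line 2 (Apln). With sites linked up to 200 kb the counts were 12 (12.4%) and 5 (5.15%) of 97. Of all genes tested, 14.3% were called in line 1 and 3.58% in line 2.

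The sites nearest to a start lay at Tsr2, a ribosome assembly factor (0.196 kb), Mum1l1 (0.301 kb), Rab9, a GTPase of late endosomes (0.363 kb), Pir (0.373 kb), the zinc finger gene Zfp449 (0.391 kb) and Mbtps2, a protease of lipid regulation (0.407 kb). Tsr2 stood at 68.7 and 73.9 CPM for WT, 64.9 and 77.9 for line 1 and 73.2 and 86.7 for line 2. Rab9 stood at 48.0 and 45.8, 58.1 and 48.7, and 51.4 and 42.6 CPM in the same order. Both lines overlapped WT at Tsr2, whereas at Rab9 line 1 lay just above WT and line 2 overlapped it. None of the 6 genes nearest to a site passed in either line, with log2 fold changes from -0.90 (Mum1l1) to 0.18 (Rab9) in line 1 and from -0.02 (Mbtps2) to 0.32 (Zfp449) in line 2.

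A second set was that of genes whose site also touched an accessible site. Besides Pir and Amot, those with the site nearest to their start were Prps1, which makes the ribose phosphate donor for nucleotides, Eda2r, a receptor of ectodysplasin, the translation factor gene Eif1ax and Bex3. Prps1 stood at 32.1 and 44.5 CPM for WT, 23.5 and 43.3 for line 1 and 31.7 and 40.9 for line 2. Eda2r stood at 27.3 and 30.2, 38.9 and 35.9, and 32.0 and 33.3 CPM, above WT in both libraries of each line, but did not pass the test (adjusted p = 0.191 and 0.753). Prps1, Eif1ax and Bex3 had log2 fold changes from -0.18 to -0.01 in both lines, and Pir had -0.09 and 0.10.

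Among the genes with most sites, Vma21 stood at 25.8 and 31.7 CPM for WT, 50.0 and 39.3 for line 1 and 36.8 and 36.7 for line 2. Both lines lay above WT without overlap, and neither passed the test (0.62 ± 0.19 SE, adjusted p = 0.0884, and 0.35 ± 0.19, adjusted p = 0.523). Tmsb4x stood at 124 and 113 CPM for WT, 105 and 85.4 for line 1 and 124 and 109 for line 2, and it did not pass either (adjusted p = 0.226 and 0.985). Rlim, the gene of a ubiquitin ligase known for its part in Xist activation, stood at 262 and 317 CPM for WT, 238 and 347 for line 1 and 269.7 and 315 for line 2. All 3 groups overlapped (log2 fold change 0.02 ± 0.21 SE and 0.01 ± 0.21, adjusted p = 0.975 and 0.994).

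Apln, the gene of the peptide ligand of the apelin receptor, rose in both lines. It had 3 linked sites, the nearest 8.75 kb from its start, and stood at 3.79 and 4.32 CPM for WT, 10.5 and 16.7 for line 1 and 13.3 and 13.1 for line 2. Its log2 fold change was 1.75 ± 0.31 (SE) in line 1 (adjusted p = 0.0146) and 1.69 ± 0.31 in line 2 (adjusted p = 0.0431). The call in line 1 was lost without either WT library, and that in line 2 without any 1 of its 4 libraries. On leaving out a library the log2 fold change ranged from 1.36 to 2.01 in line 1 and from 1.61 to 1.79 in line 2.

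Srpx, which codes for a secreted protein with sushi repeats, fell in both lines. Its 1 linked site lay 39.9 kb from the start. Levels were 23.7 and 31.2 CPM for WT, 10.0 and 4.37 for line 1 and 0.969 and 0.846 for line 2, where it was down to 4.0 and 6.0 deposited counts. Against WT it changed by -2.01 ± 0.40 on the log2 scale in line 1 (adjusted p = 0.0229) and -4.91 ± 0.51 in line 2 (adjusted p = 0.0107). Without either WT library the call in line 1 was lost, and in line 2 it was lost without WT replicate 2 or either library of line 2.

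The other calls were made in line 1 alone. Hs6st2, with 5 linked sites of which 2 touched accessible sites, stood at 212 and 225 CPM for WT, 120 and 112 for line 1 and 226 and 229 for line 2. It fell in line 1 by 0.91 on the log2 scale (SE 0.11, adjusted p = 0.0036), and this call and its direction held without any 1 of the 4 libraries compared. Cask, the gene of a membrane scaffold kinase, with 2 sites, stood at 143 and 155 CPM for WT, 324 and 269 for line 1 and 167 and 182 for line 2. It rose in line 1 (0.99 ± 0.14 SE, adjusted p = 0.00659), a call that was lost without WT replicate 1.

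Amot had 3 sites, including the pair around an accessible site above, and in the larger RefSeq set they lie within the gene. It stood at 137 and 141 CPM for WT, 248 and 215 for line 1 and 169 and 145 for line 2. Its log2 fold change in line 1 was 0.73 ± 0.13 (adjusted p = 0.0165). Mid2, the gene of a microtubule-bound ubiquitin ligase with 1 site at 16.8 kb, stood at 37.9 and 51.0 CPM for WT, 12.4 and 19.8 for line 1 and 34.6 and 46.7 for line 2, and it fell in line 1 (-1.44 ± 0.30, adjusted p = 0.0254). Both calls were lost without either WT library. The last of the 7, Tmem164, a membrane protein gene with 3 sites, is named because the count is small: it stood at 193 and 189 CPM for WT, 139 and 139 for line 1 and 200 and 201 for line 2 (-0.46 in line 1, adjusted p = 0.03).

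**Figure D4:**
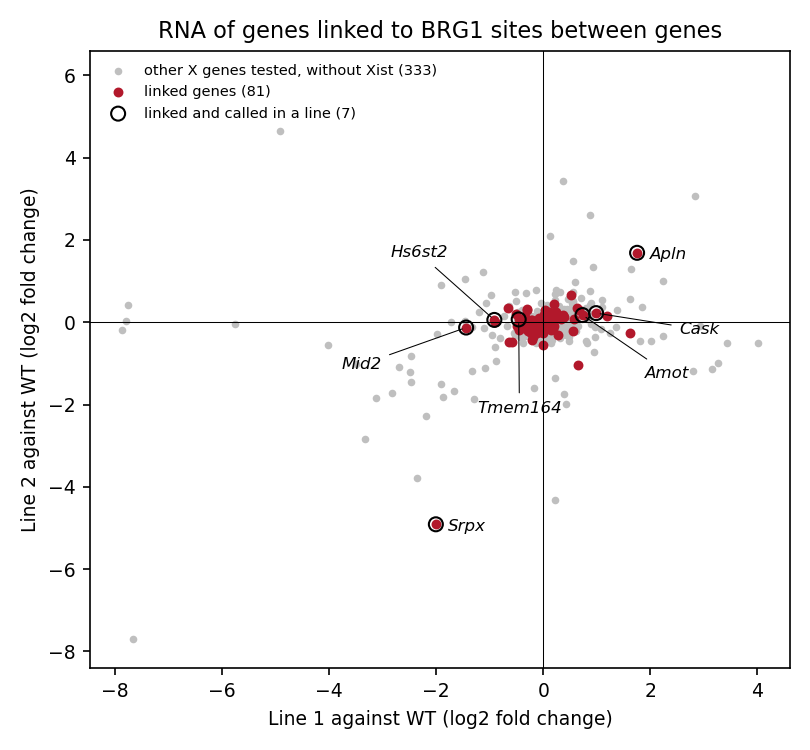
Log2 fold change of RNA against WT in line 1 (x axis) and line 2 (y axis) for 81 genes linked to the BRG1 sites, over the other X-linked genes tested without Xist; rings mark the 7 linked genes called in a line. Apln is high and Srpx low in both lines, and the other 5 ringed genes differ from 0 along the x axis.

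Beside the runs with most sites and the most isolated sites, 2 genes that had no linked site within 50 kb were called. Phex, the next annotated gene beyond the run of 7 sites, has its start 386 kb from an accessible site in that run. It stood at 4.80 and 11.8 CPM for WT, 57.0 and 73.6 for line 1 and 4.60 and 11.0 for line 2. In line 1 it rose (2.92 ± 0.50, adjusted p = 0.0133), a call that was lost without WT replicate 1. Ptchd1, a gene of a patched-like membrane protein on 1 side of an isolated site, stood at 13.6 and 16.8 CPM for WT, 5.41 and 1.23 for line 1 and 1.45 and 0.846 for line 2. It fell in line 2 (-3.78 ± 0.68, adjusted p = 0.0427), and the call was lost without any 1 of the 4 libraries. In line 1 its adjusted p was 0.0512. Cldn34c1, Vmn2r121 and 4930503H13Rik had at most 0.5 deposited counts in any library.

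Reads that could be assigned to a parental allele showed linked genes read almost wholly from the cas X. The authors' allele table held 51 of the linked genes, which they classed Monoallelic for 50 and Biallelic for 1, against 19 Biallelic of all 205 genes (9.27%). The share of mus reads, over the 51 genes, had a median of 0% and 1.35% for the WT libraries, 0% and 1.39% for those of line 1 and 1.01% and 1.42% for those of line 2. Over all 205 genes the medians were 0% and 1.40%, 0% and 1.39%, and 0% and 1.57%. The lower value was in each group that of the shallower library, which had 4906 to 5685 allele reads over the 51 genes against 8261 to 9160 in the other, and the part of depth in it was not tested. In 10 of the 51 genes no mus read was found in any library.

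Nono, an RNA-binding paraspeckle gene with a site 0.729 kb from its start, was the Biallelic one. Its mus share was 36.5% and 38.8% for WT, 35.3% and 47.3% for line 1 and 36.8% and 44.5% for line 2, and the groups overlapped.

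**Figure D5:**
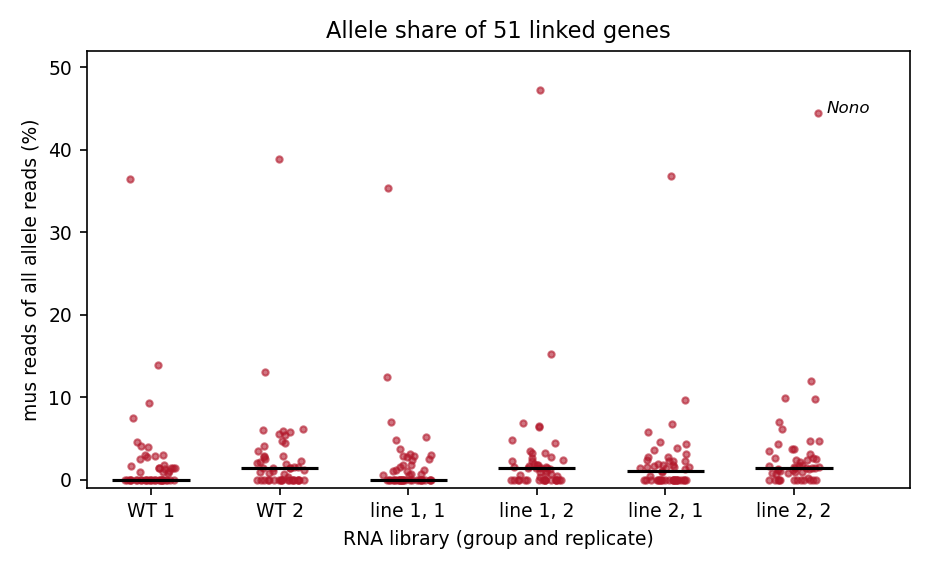
Share of mus reads among all allele reads (%, y axis) of each of 51 linked genes (points) in each RNA library (x axis), with the median as a bar. Medians lie between 0% and 1.42%, and Nono stands alone between 35.3% and 47.3%.

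No linked gene passed the test of its mus share, and the 10 with no mus read in any library could not have. In edgeR's quasi-likelihood test on allele counts 0 of 51 were called in line 1 and 0 of 51 in line 2, against 3 of 205 genes (1.46%) and 0 of 205 (0%), with 0 and 2 of the 51 at an unadjusted p under 0.05, against 4 and 3 of the 205. Both libraries lay above both WT libraries for 1 gene in line 1 (1.96%, against 8.78% of all 205) and for 7 in line 2 (13.7%, against 9.76%). They lay below for 6 in line 1 (11.8%, against 9.76%) and for 5 in line 2 (9.80%, against 10.2%).

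Mid1, the gene of another microtubule-bound ubiquitin ligase, had the lowest adjusted p of the 51 in line 2. It had 3 linked sites, the nearest 1.13 kb from its start. Its mus share was 1.25% and 2.48% for WT, 2.42% and 1.80% for line 1, and 9.65% and 9.84% for line 2, from 1.0 and 3.0, 1.5 and 1.5, and 11.0 and 15.5 mus reads. The libraries of line 2 lay above all others, without passing the test (adjusted p = 0.164). Mum1l1, the other gene at an unadjusted p under 0.05, had mus reads in line 2 alone, 2.0 in each library. Of the genes with called RNA, Amot, Cask, Hs6st2 and Tmem164 had mus shares of at most 5.17% in any library and Mid2 had 0 mus reads throughout. Apln and Srpx, which were called in both lines, were not in the allele table, so the allele behind their changes is not known.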

How the data were processed

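BRG1 and accessible sites were deposited by the authors as interval lists in 3 classes each, without scores, and the sources used here do not say how sites were called and classed. Exon values are expected counts per RefSeq transcript, deposited by the authors and made with HOMER without normalization, per the file headers, in steps of 0.5. The deposited allele values are expected counts per gene and parental allele, with 0.5 as the lowest value, taken here as 0 for shares. Without roles, mm10 and the tools Bowtie2 2.2.7, MACS2, HOMER, bedtools 2.25.0, Novoalign 3.00.02, SAMtools 0.1.18, TopHat2, edgeR and Trim Galore 0.4.1 are named per the submitters' processing notes. Use of the strand in counting is not stated, so overlapping antisense genes cannot be told apart.

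Sites are 1-based, and 1 shared base counted as overlap. The design assumed whole counts, and expected counts were rounded instead. For each symbol the transcript with the highest total was kept. All 6 libraries (header totals 10.5 to 20.1 M) were fitted together by edgeR 4.0.16 under R 4.3.3 (quasi-likelihood) with TMM scaling and a filter on low counts, and p-values were adjusted by Benjamini-Hochberg over 12910 genes. Allele counts were fitted with a term per library and a mus term per group over 205 genes. Scripts were tested on simulated data. DESeq2 1.42.0, other scalings, filters, link distances and left-out libraries were alternatives. Replicates are biological per the labels' protocols.

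Members, gene lists and link rules were chosen with earlier results of these data known. Genes were named by a rule: Xist and Smarca4, the 6 with most linked sites and those tied with them, up to 6 called per line, those lowest in adjusted p for the mus share, and those beside the nearest, farthest and accessible sites and the runs with most sites. BRG1 and accessibility tracks, line 2 ATAC-seq and siRNA samples were not used here. Motifs within the sites were not searched. The difference between the lines for 1 linked gene is not reported here.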

Additional observations from a re-analysis of the deposited data

Results flagged for a closer look

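For 10 of the 81 tested genes linked to the sites (12.3%, against 12.6% of all genes tested) the RNA differed between the 2 Xist-deleted lines, tested as line 2 minus line 1 in the same edgeR fit. Of those reported here, line 2 was higher for Hs6st2 (log2 difference 0.97 ± 0.11 SE, adjusted p = 0.00325), Mid1 (1.00 ± 0.19, adjusted p = 0.0192), Mid2 (1.31 ± 0.30, adjusted p = 0.0364), Sh3bgrl (0.49 ± 0.11, adjusted p = 0.037) and Tmem164 (0.53 ± 0.10, adjusted p = 0.02). It was lower for Amot (-0.56 ± 0.13, adjusted p = 0.0422), Cask (-0.76 ± 0.14, adjusted p = 0.0163), Srpx (-2.90 ± 0.56, adjusted p = 0.0213) and Xpnpep2 (-1.89 ± 0.46, adjusted p = 0.0474).

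Mid1 stood at 54.3 and 54.9 CPM for WT, 39.7 and 30.2 for line 1 and 75.8 and 63.2 for line 2, so that the lines lay on opposite sides of WT. Sh3bgrl, with 2 sites, stood at 135 and 140, 102 and 114, and 149 and 154 CPM. Xpnpep2, a membrane aminopeptidase gene, stood at 4.04 and 3.52, 14.6 and 9.01, and 4.60 and 1.97 CPM.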

How the results depend on the processing

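The number of sites was 437 with the site centre or at least 50% of the site as the test of lying in a gene, and 393 with spans widened by 1 kb. The distance to a start was 68.0 kb over expressed genes only, and the share in accessible sites was 0.926% at an overlap of 50% of the shorter interval and 33.6% within 1 kb. The count of linked genes called in line 1 (7) was 12 without the filter on low counts, 3 with starts within 10 kb, 12 within 200 kb and 2 to 13 with 1 library left out. In line 2 (2) it was 4, 1, 5 and 0 to 1 in the same order. Without the filter on low counts, 9.92% of linked genes were called in line 1 and 3.31% in line 2, against 13.6% and 4.84% of all genes. With a replicate block the counts were 24 and 4. The groups share only replicate numbers. Differences between replicates correlated between groups (0.56 to 0.63 across genes), a shared pattern that the main fit does not model. With 2 numbers, of which the first is the shallower library in each group, whether depth or a pairing lies behind it was not tested. The cause of the changes in count was not tested. The values counted next include Xist, the deleted gene, and Smarca4, which was called in neither line and so had no call to lose. Each alternative that left out no replicate kept all 14 values it was run on. Lost calls are therefore to be read against the fits with a library left out, not against the total. Of 140 values of named genes under alternatives, 117 kept direction and call, 21 kept direction but lost the call, all on leaving out a library, and 2 reversed: the log2 fold change of Smarca4 in line 2 ranged from -0.24 to 0.040 on leaving out a library, being 0.040 without replicate 1 of WT and 0.03 without replicate 2 of line 2. The counts of linked genes with a changed mus share were 0 under all alternatives run, the replicate block included. With at least 20 allele reads the median mus share of replicate 1 was 0.907% for WT, 0.624% for line 1 and 1.46% for line 2. The alternatives on motifs within sites were not run. With 2 libraries a group and few mus reads per gene, small changes in mus share were not detectable at this depth.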
